A study of Homo sapiens and Mus musculus with 66 samples.

Results

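Chromatin regions near the nuclear lamina were compared between lamin-B1 cTSA-seq done with 50000 HCT116 cells and with 200000 HCT116 cells, by setting the called region list of the one against that of the other. The members are the 100 kb windows of hg19 chromosomes 1 to 22, X and Y that either list held, which were 7443 of 30970 windows, while 17089 windows were in at least 1 of the 10 lists used. HCT116 is a human colorectal carcinoma cell line, and the cells of both dilutions were untreated and asynchronous. The HCT116 lists at 90 and 180 min after mitotic release, used below for reference, came from treated cells. Those cells had been blocked in mitosis with nocodazole, released and sorted for G1 DNA content. In cTSA-seq an antibody to lamin-B1 brings a peroxidase to the lamina of fixed cells, biotin is deposited on the chromatin nearby, and the biotinylated DNA is pulled down with streptavidin (StrePD) and sequenced beside an input library.

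The labels give 1 input and 2 StrePD libraries for each cell number, 6 of the 66 samples of the series. The smaller amounts were serial dilutions of harvested cells, so the pair differed in the number of cells and not in genotype, treatment or cell cycle stage. A hidden Markov model with 3 states had been fitted by the authors, and the windows of its strongest state, intersected over replicates, form 1 deposited list per cell number. A supplementary legend of the study calls its HCT116 repeats at low cell numbers biological, without saying whether they were separate cultures or separate dilutions. The lists carry neither signal nor read counts. The depth of these libraries was therefore not analysed here, no spread between replicates can be given, and no difference described here was tested.

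The nuclear lamina is a meshwork of lamins under the inner nuclear membrane. Stretches of chromatin that lie against it, the lamina-associated domains (LADs), are as a rule poor in genes, rich in A and T and transcriptionally quiet, and they replicate late. Some LADs are found in nearly all cell types and others in only some, and a single cell holds just part of its LADs at the lamina at any time.

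No expression values come with these libraries, so the cell label was checked by the likeness of the lists. The Jaccard index, the windows in both lists over the windows in either, was 0.840 between the 50k list and the list from 1000000 HCT116 cells (1e6) and 0.727 against bulk HCT116 cells, where the cell number is not given in the labels. It was 0.419 against K562, a human leukemia cell line. For the 200k list the same values were 0.819, 0.680 and 0.420. With sorted G1, S and G2 cells the index lay from 0.785 to 0.818 for both lists. By this index both lists resembled the asynchronous HCT116 lists more than the K562 list. The list 90 min after mitotic release had an index of only 0.196 with 50k and 0.178 with 200k. The K562 list held 12274 windows, however, and such a length by itself keeps the index low. By share, K562 held 80.8% of the 50k and 83.1% of the 200k windows. G2, the lowest asynchronous HCT116 list, held 83.5% and 84.2%, and the list at 180 min held 74.9% and 76.2%. The check of the cell label is therefore weak.

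Base composition set the unshared windows of one list apart from those of the other, so a stretch of sequence is shown from the longest autosomal stretches of each class. Each is 150 bases of the hg19 plus strand, outside annotated exons, with a GC content close to that of the whole stretch, and capitals mark G and C. The first pair lay in windows called with 50000 cells only, at 45.8% and 36.8% GC over the whole stretch.
chr7:131403751-131403900: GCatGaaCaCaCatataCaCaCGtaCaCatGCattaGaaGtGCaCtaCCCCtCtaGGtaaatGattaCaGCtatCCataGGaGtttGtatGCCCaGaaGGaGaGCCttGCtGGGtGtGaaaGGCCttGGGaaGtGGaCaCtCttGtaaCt
chr13:91205101-91205250: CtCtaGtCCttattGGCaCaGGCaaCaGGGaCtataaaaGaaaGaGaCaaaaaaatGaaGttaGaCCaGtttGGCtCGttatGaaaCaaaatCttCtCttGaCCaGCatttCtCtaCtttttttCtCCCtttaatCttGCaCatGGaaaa
The next pair lay in windows called with 200000 cells only, at 35.1% and 36.1% GC.
chr1:102000451-102000600: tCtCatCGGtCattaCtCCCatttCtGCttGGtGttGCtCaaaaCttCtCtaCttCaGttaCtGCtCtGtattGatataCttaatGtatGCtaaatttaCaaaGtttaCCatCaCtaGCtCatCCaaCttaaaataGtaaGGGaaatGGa
chr4:81200451-81200600: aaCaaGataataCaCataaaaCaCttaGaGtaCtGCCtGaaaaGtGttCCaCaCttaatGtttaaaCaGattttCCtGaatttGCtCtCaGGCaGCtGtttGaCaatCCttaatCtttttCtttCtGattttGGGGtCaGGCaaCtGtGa
The last came from the longest stretch shared by both lists, chr5:17200001-31400000, at 35.5% GC.
chr5:17202101-17202250: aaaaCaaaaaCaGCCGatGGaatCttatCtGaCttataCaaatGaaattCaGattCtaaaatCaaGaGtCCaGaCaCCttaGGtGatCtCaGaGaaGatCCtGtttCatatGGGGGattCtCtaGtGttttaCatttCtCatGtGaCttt
The chromosome 7 stretch held 69 G or C in its 150 bases, against 53 or 54 in the pair called with 200000 cells and 53 in the shared one. The chromosome 13 stretch, with 55, was near the latter.

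Most called windows were common to both cell numbers. The 50k list held 432 regions on these chromosomes and 7062 windows, 22.8% of all windows, and the 200k list held 435 regions and 6777 windows, 21.9% of all. Of these, 6396 windows (640 Mb) were shared, 666 (66.6 Mb) were called with 50000 cells only and 381 (38.0 Mb) with 200000 cells only, 2.15% and 1.23% of all windows. The Jaccard index of the pair was 0.859. For comparison, the 1e6 list held 6561 windows and the bulk list 8344. Shared windows made up 90.6% of the 50k list and 94.4% of the 200k list. The smaller number of cells therefore came with the longer list, and the larger part of the unshared windows was on its side.

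Unshared windows fell into short stretches. The 666 windows called with 50000 cells only formed 323 stretches, of which 175 were a single window and 32 were 5 windows or longer. The 381 windows called with 200000 cells only formed 178 stretches, 96 of them a single window and 19 of 5 windows or longer. By place, 392 of the 666 windows (58.9%) lay at the outer edge of a shared stretch, 198 (29.7%) were isolated from any shared window and 76 (11.4%) filled a gap between shared windows. Among the 381 windows these were 182 (47.8%), 174 (45.7%) and 25 (6.56%). Windows called with 50000 cells only thus extended shared regions more often by share, and those called with 200000 cells only stood alone more often.

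Isolated stretches were usually not close neighbours of a shared region. The 58 isolated stretches of the 50k list had their nearest shared window at a median distance of 1.7 Mb, with quartiles of 0.8 and 3.3 Mb. For the 47 of the 200k list the median was 1.9 Mb, with quartiles of 0.6 and 3.9 Mb. Within 500 kb of a shared window lay 9 stretches of either kind.

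A window's distance from the border of its own region went with how often the other list held it. Of the 50k windows at a border, 59.0% were in the 200k list, 81.7% of the second windows from a border, 91.3% of the third, and 98.6% of those more than 10 windows inside. For the 200k windows the shares in the 50k list were 75.3%, 89.0%, 95.2% and 99.5%. The interiors of long regions were nearly the same in both lists, and the differences sat in the outer windows and in small regions.

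Regions were found again according to their size. Of the 432 regions of the 50k list, 373 (86.3%, Wilson 95% interval 82.8 to 89.3) overlapped a 200k region. Of the 435 regions of the 200k list, 387 (89.0%, 85.7 to 91.6) overlapped a 50k region. These intervals, here and below, cover counting error only, and neighbouring windows or regions are not independent observations.

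Among regions of 100 to 300 kb, 15 of 50 regions of the 50k list (30.0%, 19.1 to 43.8) and 35 of 62 regions of the 200k list (56.5%, 44.1 to 68.1) were found. From 400 to 900 kb the counts were 112 of 136 and 122 of 142. From 1 to 1.9 Mb, 130 of 130 regions of the 50k list and 125 of 126 of the 200k list were found. From 2 Mb on all 116 and all 105 were. Any overlap counted here, which a long region meets more easily. With at least 80% of a region covered, 11 of 50 and 29 of 62 regions of 100 to 300 kb were found. From 1 to 1.9 Mb these were 111 of 130 and 118 of 126, and from 2 Mb on 109 of 116 and 103 of 105. Short regions called with 50000 cells were the class found least often with the larger number of cells.

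**Figure D1:**
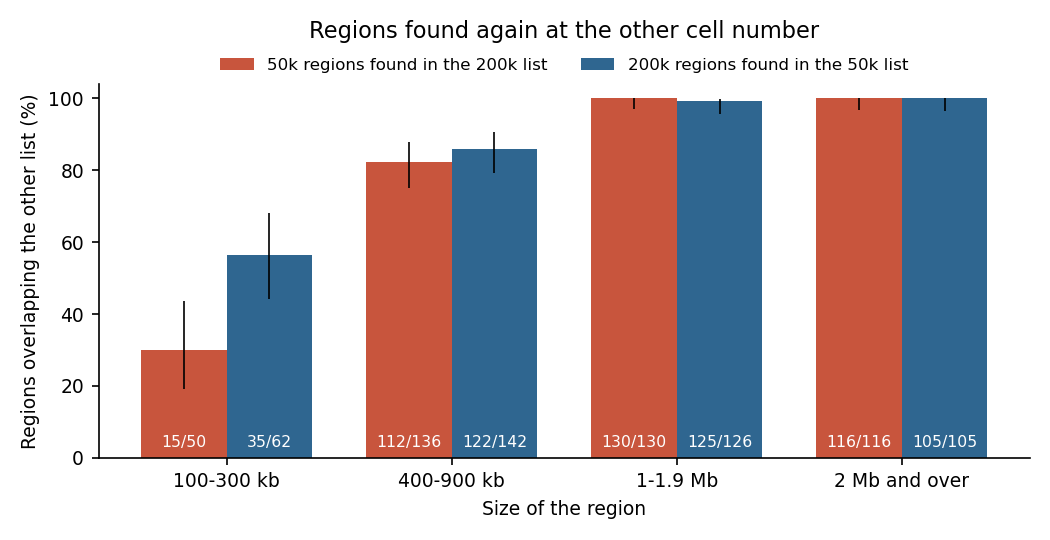
Share of regions of each list (vertical axis, percent) that overlap the other list by at least 1 bp, in 4 size classes (horizontal axis), with counts in the bars and Wilson 95% intervals as error bars. The bars rise from 30.0% and 56.5% at 100 to 300 kb to 100% for both lists at 2 Mb and over.

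Regions without a partner were small. Among the 59 such regions of the 50k list the median was 300 kb and the largest was 900 kb, while those with a partner had a median of 1300 kb. Among the 48 of the 200k list the median was also 300 kb and the largest was 1200 kb, against a median of 1200 kb for the others. In the bulk list, 40 of the 59 regions called with 50000 cells were covered to at least 80%, and 10 of the 48 called with 200000 cells were. The same size of region thus carried different support on either side.

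Over whole lists the sizes were close. The median region was 1100 kb in the 50k list (quartiles 600 and 2000 kb) and 1000 kb in the 200k list (500 and 1900 kb), and the longest was 14.2 Mb in both. Regions of 1 Mb or more numbered 246 and 231. In 339 cases a region of one list overlapped a single region of the other and nothing else, and in 87 of these both borders were the same. A single 50k region covered several 200k regions in 17 cases, the reverse held in 6, and in 2 cases several regions overlapped several. The lists therefore differed more often by 50k regions that joined 200k regions than by the opposite. Some of the 17 cases and the 2 cases of several with several were on chromosome Y, and none of the 6 was. Without Y, joining by 50k regions was still the more frequent, but by less.

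Borders of the 339 pairs were compared to see in which direction the edges moved. Of the 678 borders, 338 (49.9%) were at the same window and 576 (85.0%) within 1 window. The 50k border lay further out at 227 borders (33.5%) and further in at 113 (16.7%). The mean outward shift was 28.6 kb (SD 136 kb over borders, which are not replicates), with 30.1 kb at the left border and 27.1 kb at the right one, and the median was 0 kb. Edges that moved were mostly moved by a single window, 153 outward and 85 inward, and 30 of the 42 shifts of 3 windows or more were outward for the 50k list.

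**Figure D2:**
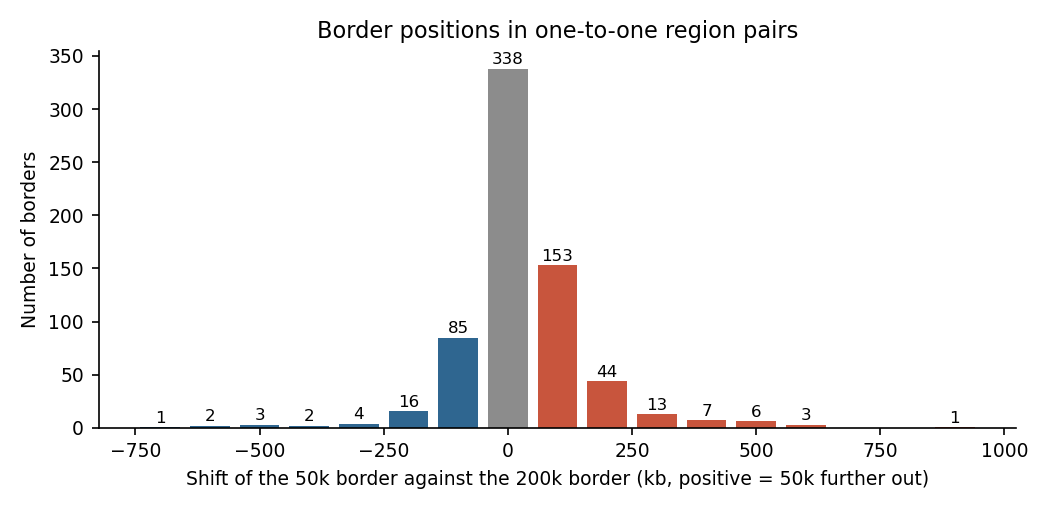
Number of borders (vertical axis) by the shift of the 50k border against the 200k border in kb (horizontal axis, positive where the 50k region reaches further out), for 339 pairs of regions. The bar at 0 holds 338 borders, and the bar at 100 kb (153) is taller than its mirror image (85).

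The sequence between the shifted borders was looked up in the bulk list. Where the 50k border lay further out, that sequence was wholly in a bulk region at 168 of 227 borders. Where it lay further in, the sequence that only the 200k region held was wholly in a bulk region at 58 of 113. Bulk edges were nearer to the 50k border at 173 of the 227 borders while among the 113 they were nearer to the 200k border at 57 and to the 50k border at 52. At edges where the 50k region was longer, bulk cells were thus mostly on its side, while at edges where the 200k region was longer the bulk list was with either about equally.

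The largest shift was at chr13:91200001-92100000, where the 50k region began 900 kb before the 200k region within GPC5, which encodes a glypican, a heparan sulfate proteoglycan of the cell surface. All 9 windows between were in the bulk list. Next came chr8:93800001-94500000, where the 200k region ended 700 kb further out over TRIQK, with 3 of 7 windows in bulk. At chr1:75100001-75700000 the 200k region also reached 600 kb further, over CRYZ (a quinone reductase), TYW3 (an enzyme of tRNA modification) and LHX8 (a LIM homeobox transcription factor), and bulk held none of these windows.

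Further borders also differed by 600 kb. The 50k region reached further into SPHKAP, an A-kinase anchoring protein gene, at chr2:229000001-229600000, where bulk held 0 of 6 windows. It also reached further into FHIT, a gene at a common fragile site, at chr3:59500001-60100000, and over ST8SIA2, which encodes a polysialyltransferase, at chr15:92500001-93100000, and bulk held all 6 windows of either. The 200k region reached further over HSPA13, a member of the HSP70 family, and SAMSN1 at chr21:15600001-16200000, with none of 6 windows in bulk. The large shifts therefore went both ways, and bulk held the longer version at 3 of the 4 that were outward for 50k and wholly at none of the 3 that were outward for 200k.

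The bulk list, called from HCT116 libraries other than those of the dilutions, was used as a common reference. It held 26.9% of all windows. Of the shared windows, 93.7% were in it, and of the windows in neither list 7.36%. It held 491 of the 666 windows called with 50000 cells only (73.7%, Wilson 95% interval 70.3 to 76.9) and 130 of the 381 called with 200000 cells only (34.1%, 29.5 to 39.0). Windows that touched a called region but were in neither list were in the bulk list in 40.7% of cases. Windows called with 50000 cells only were therefore supported far above the share of all windows and above these flanking windows, and the share of those called with 200000 cells only lay between these values.

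Place within the region went with this support. Isolated windows of the 50k list were in bulk in 76.8% of cases, edge windows in 75.8% and inner windows in 55.3%. For the 200k list the shares were 17.2% of isolated, 47.3% of edge and 56.0% of inner windows, the last resting on 25 windows. Without chromosome Y they were 80.3%, 78.5% and 69.0% for the 50k list and 16.6%, 45.0% and 45.0% for the 200k list, so the order of the lists for inner windows turned with Y. With or without Y, the gap between the lists was widest for isolated windows.

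The other HCT116 lists were taken in turn. The 1e6 list, called from 1000000 cells in the same dilution series, held 21.2% of all windows, 45.0% of the windows called with 50000 cells only and 22.6% of those called with 200000 cells only. The labels hold 1 StrePD library for it. In sorted cells the 50k value was again the larger, with 42.0% against 7.61% in G1 (20.2% of all windows), 54.7% against 29.9% in S (22.4%) and 38.1% against 16.0% in G2 (20.0%). In G1 and G2 the windows called with 200000 cells only were thus present less often than all windows, which include the shared ones. Windows in neither list were in G1 in 0.978% of cases and in G2 in 0.935%. For flanking windows in neither list the shares were 9.21% and 11.6%. Windows called with 200000 cells only were therefore well above windows outside both lists, and in G2 also above the flanking windows.

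The lists after mitotic release kept the order of the other HCT116 lists, and K562 did not. At 180 min after mitotic release the shares were 36.9% and 31.8%, at 20.5% of all windows, and at 90 min they were 34.1% and 8.14%, at 17.0%. In K562, whose list held 39.6% of all windows, the order turned round, with 50.2% of the windows called with 50000 cells only and 68.5% of those called with 200000 cells only. The windows called with 200000 cells only were thus more often in the K562 list than in any of the other HCT116 lists. The K562 list was the longest, however. Windows in neither list (26.8%) and flanking windows (42.0%) were also found most often in it.

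**Figure D3:**
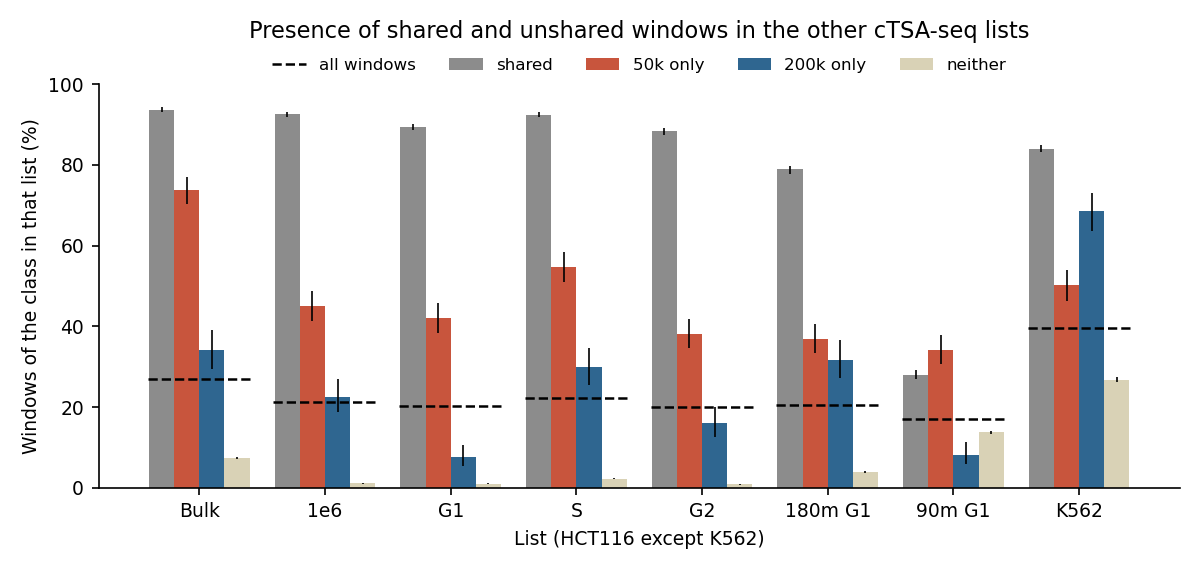
Share of windows (vertical axis, percent) found in each of 8 other lists (horizontal axis) for shared windows, windows called with 50000 cells only, with 200000 cells only and in neither list, with Wilson 95% intervals as error bars and dashed lines for the share of all windows. The 50k only bars exceed the 200k only bars in the 7 HCT116 lists, and K562 shows the reverse (50.2% against 68.5%).

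The 5 HCT116 lists not taken at a set time after mitosis (bulk, 1e6, G1, S and G2) were then counted together. Of the windows called with 50000 cells only, 325 (48.8%) were in at least 3 of the 5, 61 were in all 5 and 43 (6.46%) in none. Of those called with 200000 cells only, 45 (11.8%) were in at least 3, 2 were in all 5 and 139 (36.5%) in none. Of these 139 windows, 96 were in the K562 list. For shared windows, 92.3% were in at least 3 and 0.266% in none.

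GC content separated the unshared classes. The median over windows was 40.8% (quartiles 38.6 and 43.6) for windows called with 50000 cells only and 37.8% (36.2 and 39.7) for those called with 200000 cells only. Shared windows had a median of 37.5%, windows in neither list 40.8%, windows flanking a called region 40.1% and all windows 39.8%. By the median GC content the former class was thus like the genome outside the lists, and the latter like shared LADs. The median was higher for the former on 18 of the 20 chromosomes with at least 5 windows of each class, and it was above that of the shared windows on all 24 chromosomes. CpG dinucleotides were also more frequent in the former, with a median of 7.85 per kb against 6.18 per kb, and 6.36 per kb in shared windows. Windows in neither list had 9.26 per kb and all windows 8.15 per kb. By CpG the former class therefore lay between shared windows and the genome outside the lists.

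**Figure D4:**
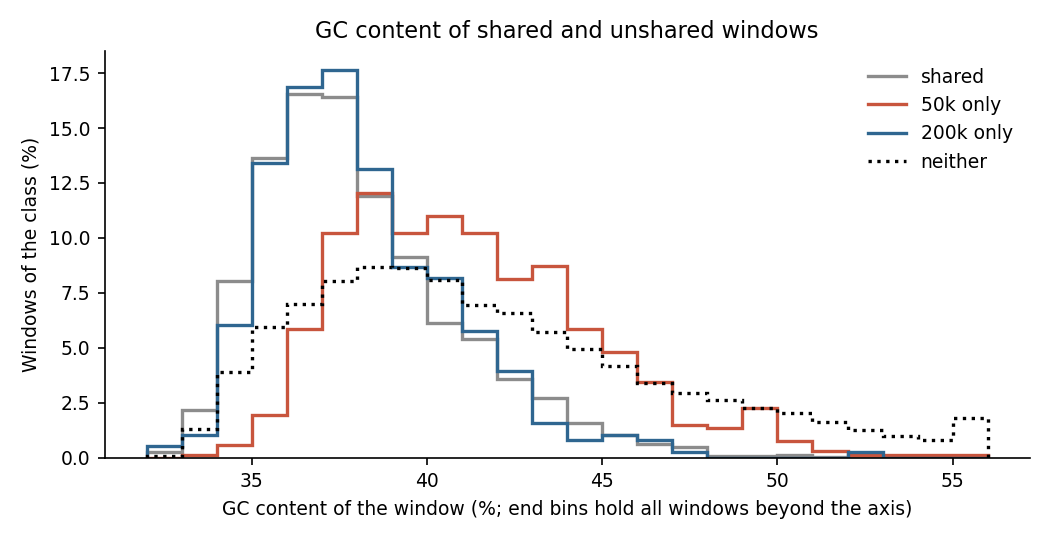
Distribution of GC content (horizontal axis, percent, bins of 1) over the windows of each class (vertical axis, percent of the class), the end bins holding all windows beyond the axis. The curve of windows called with 200000 cells only runs with that of shared windows (medians 37.8% and 37.5%), and that of windows called with 50000 cells only lies further right (40.8%).

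Because the bulk list itself leaned to GC-rich windows, with a median of 38.8% against 37.8% for 50k and 37.6% for 200k, bulk support was also read within bins of GC content. Below 36% GC, bulk held 5 of 18 windows called with 50000 cells only and 3 of 80 called with 200000 cells only. From 36 to 38% it held 43.9% and 15.3%, from 38 to 40% 65.5% and 47.0%, and from 40 to 42% 81.6% and 69.8%. At 42% and above it held 226 of 251 and 30 of 33, 90.0% and 90.9%. Support rose with GC content in both classes, and at like GC content the 50k value was higher in every bin but the last.

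Within a chromosome the same order held in most cases. Bulk support was higher for windows called with 50000 cells only on 18 of the 20 chromosomes with at least 5 windows of each class. There were more of these windows than of the other class on 20 chromosomes, fewer on 2 (4 and 18) and equally many on 2 (8 and 14). The Jaccard index over the chromosomes had a median of 0.876, and on autosomes it ran from 0.750 on chromosome 22, which had 28 called windows in the 50k list, to 0.921 on chromosome 14. Chromosome 19 had 25 windows called with 50000 cells only and 0 called with 200000 cells only, and chromosome 22 had 7 and 0.

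**Figure D5:**
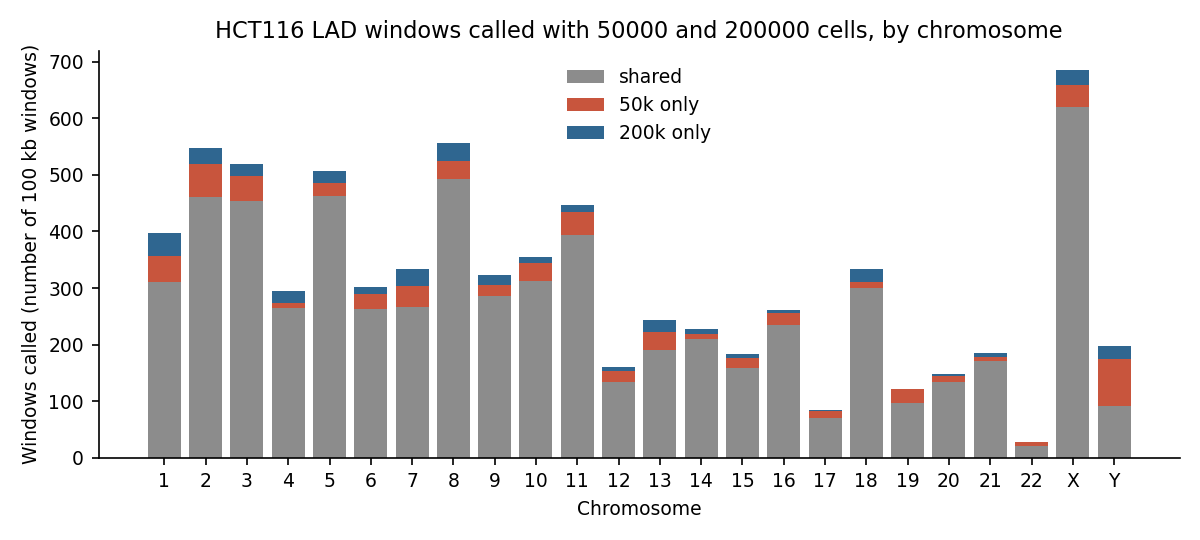
Number of 100 kb windows (vertical axis) called in both lists, with 50000 cells only and with 200000 cells only, stacked for each chromosome (horizontal axis). By share, chromosome Y has the largest unshared part, with 92 shared, 82 and 23 windows.

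Chromosome Y had the lowest index of all, 0.467. Of its 174 windows in the 50k list and 115 in the 200k list, 92 were shared. It also turned the order of bulk support, with 32 of 82 windows called with 50000 cells only (39.0%) and 17 of 23 called with 200000 cells only (73.9%) in bulk. The chromosome held 47 of the 76 inner windows of the 50k list, and at chrY:16200001-19900000 a single 50k region covered 4 regions of the 200k list. Long parts of Y are copies of each other or of X, and how reads from such parts were placed is not given beyond the aligner's default setting. Its part in the result was not tested, and without Y the bulk shares were 78.6% and 31.6% and the Jaccard index 0.870.

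The longest stretch called with 50000 cells only was chrY:21200001-22700000, with 15 windows around KDM5D, a histone H3 lysine 4 demethylase gene, of which bulk held 5. At chrY:14800001-15600000, bulk held none of 8 windows over DDX3Y (an RNA helicase), UTY (a homologue of an H3 lysine 27 demethylase) and part of USP9Y (a deubiquitinase), whereas the 1e6 list held 6. Bulk held 1 of 8 windows at chrY:18000001-18800000, a stretch without protein-coding genes. It held 7 of 8 at chrY:22800001-23600000 around RPS4Y2, a Y-linked copy of ribosomal protein S4. The long stretches on Y were thus the least alike in the support they had.

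Apart from the SPHKAP border, the autosomal stretches called with 50000 cells only that are named here were whole in bulk. The isolated stretch chr7:131400001-132300000 over PLXNA4, a plexin that binds semaphorins in axon guidance, is the one whose sequence at 45.8% GC is printed first. Bulk, G1 and S held all its 9 windows, G2 held 8 and 1e6 held none. The stretch chr2:129700001-130400000, with no protein-coding gene, was whole in bulk, G1, S and G2, and again absent from 1e6.

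At chr10:44500001-45200000 the stretch of 7 windows held CXCL12, a chemokine that attracts leukocytes and stem cells. Bulk, S and G2 held all 7, G1 held 6 and 1e6 held 3. At chr13:103600001-104300000, an isolated region over SLC10A2, the bile acid transporter of the ileum, was whole in bulk and G2, and 1e6 held 0 of 7 windows. The GPC5 stretch on chromosome 13 was whole in bulk, while 1e6 held 3 of its 9 windows and G1 and G2 none. Where these autosomal stretches were missing from the 200k list, they were wholly or mostly missing from 1e6 too.

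The longest stretches called with 200000 cells only had little or no support in bulk. The longest, the isolated chr1:102000001-103200000 over OLFM3, which encodes an olfactomedin expressed in brain and retina, is the one whose sequence at 35.1% GC is printed above. Bulk held 0 of its 12 windows, 1e6 held 9 and K562 all 12. At chr4:81200001-82000000, over FGF5 (a fibroblast growth factor that limits hair growth), CFAP299 and BMP3 (a bone morphogenetic protein), bulk, 1e6, G1 and G2 held none of 8 windows, whereas S held 6, the list at 180 min after release 7 and K562 5.

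At chr13:81200001-82000000, a stretch without protein-coding genes, bulk held 1 of 8 windows and 1e6 held 7. At chr2:209400001-210100000, over part of PTH2R, a parathyroid hormone receptor gene, bulk, 1e6, G1, S, G2 and K562 held none of 7 windows and the list at 180 min held 3. The stretch chr7:78000001-78600000 within MAGI2, a scaffold of cell junctions and synapses, was absent from all other HCT116 lists and whole in K562. At chr7:88800001-89400000 within ZNF804B, S held 5 of 6 windows and K562 all 6. The stretches at TRIQK and LHX8 are those of the border shifts above. Of these 8 stretches, bulk held no window of 6.

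Genes followed the same lines. A gene was counted in a class where at least 80% of its length lay in windows of that class. Of 20163 protein-coding genes, 1205 lay in the 50k list and 1025 in the 200k list, and 938 lay in windows of both. Windows called with 50000 cells only held 231 genes, 3.47 per Mb, and windows called with 200000 cells only held 69, 1.81 per Mb. Shared windows held 1.47 genes per Mb and windows in neither list 7.96. By start sites, 21.5% of the former windows and 20.2% of the latter had at least 1, against 10.8% of shared and 42.3% of the remaining windows. Unshared windows of both lists thus lay between shared LADs and the rest of the genome in gene content.

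Counted by whole lists, 267 genes were in the 50k list and not in the 200k list, 1.32% of all genes, and 87 were in the 200k list and not in the 50k list, 0.431%. The bulk list held 11.1% of all genes, 71.9% of the 267 and 42.5% of the 87. Their median lengths were 15.9 and 27.9 kb, against 27.2 kb over all protein-coding genes. By the median, the genes that only the 50k list held were thus shorter, and a larger share of them was in the bulk list. Clusters of related genes held 125 of the 231 genes in windows that only the 50k list held. Among these were 20 USP17L genes (deubiquitinases) and 38 olfactory receptors. In windows that only the 200k list held, clusters had 8 of 69 genes. Neighbours in a cluster are not separate observations, and the part of the clusters in the median lengths was not tested.

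Gene families described in LADs or typical of the tissue were looked at by fixed lists. In the 21 lists, with 1560 genes, 324 genes lay in both cTSA-seq lists, 81 in the 50k list alone and 14 in the 200k list alone. Olfactory receptors, the large family of odorant receptors in tandem clusters, had 155 of 414 members in both lists, 38 in the 50k list alone, such as OR52K1, OR52M1 and OR52I2 on chromosome 11, and 8 in the 200k list alone, OR9Q2, OR1S2, OR1S1, OR10Q1, OR10W1, OR5B17, OR5B3 and OR5B2, also on chromosome 11. The zinc finger genes named ZNF, many of them repressors with a KRAB domain, had 80 of 508 members in both lists, 39 in the 50k list alone and 0 in the 200k list alone. Of the 39, 33 were on chromosome 19 and 4 on chromosome 5, among them ZNF300, ZNF454 and ZNF879. These families made up 77 of the 81 genes, and neighbouring members of a cluster share windows, so they do not count as separate observations.

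The remaining families differed by single genes. GRIK3 and GRIN2A, subunits of kainate and NMDA glutamate receptors, TENM4, a teneurin of neuronal connections, and RPS4Y2 were in the 50k list alone, and all 4 lay in bulk regions. In the 200k list alone were PCDHB1, PCDHB2 and PCDHB3 of the clustered protocadherins and CDH20, a cadherin, all in bulk regions. Also in the 200k list alone were PCDH19, a protocadherin, and CYP2C19, a drug-metabolising cytochrome P450 with none of its length in bulk. Bulk held 45.0% of the length of PCDH19, and the 50k list also held 45.0% of it.

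In 12 of the 21 lists no gene was in one list alone. Over all 20163 protein-coding genes, 938 were in both lists, 1.32% in the 50k list alone and 0.431% in the 200k list alone. In families as small as most of these, none or 1 is near that share and was not read as a trait of the family. Among these, keratins, UDP-glucuronosyltransferases, clade B serpins, carcinoembryonic antigen genes, type I interferons, HOX genes and the genes of the lamina and nuclear envelope had none of their members in both lists either. Of 94 keratin-associated protein genes 32 were in both, of 19 GABA-A receptor subunits 12, of 40 beta-defensins 3, of 24 taste receptors 1, and of 18 genes of the intestinal epithelium 1. Apart from the receptor and zinc finger clusters, no family had more than 3 genes in one list alone.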

How the data were processed

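Lamin-B1 cTSA-seq was performed by the authors on fixed HCT116 cells, with 1 input and 2 StrePD libraries for 50000 and for 200000 cells. The authors aligned reads to hg19 with Bowtie2 2.3.2, removed duplicates, counted reads in windows with bedtools 2.26.0, took the z-score of the log-ratio of pull-down to input, called a 3-state hidden Markov model and merged replicates. The deposited values are region starts and ends in bp, in windows of 100 kb, with no comparison statistics among them. Such merging keeps only what every replicate called, so a weak region can be lost from a list through 1 library.

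Regions of 10 deposited lists were mapped to 30970 windows, on chromosomes 1 to 22, X and Y, and 4 further K562 lists were not used. Windows were classed as shared, called with 50000 cells only or called with 200000 cells only. Unshared windows of either list were split into isolated, edge and inner ones. GC content came from hg19 and genes from GENCODE release 44 mapped to hg19. Calculations used Python 3.11.15, numpy 2.4.6 and scipy 1.17.1, and matplotlib 3.10.9 drew the figures. The procedures were checked on planted lists with known answers. No test was made, because 1 merged list per cell number leaves no replicates.

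The members, gene lists and rules were chosen with earlier results of these data known. The items named were the 8 longest unshared stretches of each list, the 5 longest regions without a partner, the 5 largest border shifts with their ties, family genes in unshared windows (3 examples above 10) and the chromosomes with the highest and lowest index. Chromosomes 4, 8, 18, 19 and 22 were named after their values were seen.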

Additional observations from a re-analysis of the deposited data

Results flagged for a closer look

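The 50k list held 1 region outside the chromosomes compared, the whole mitochondrial sequence of 16571 bp. It is named here because it lay outside the comparison and none of the other 9 lists held a mitochondrial region. No signal or read count accompanies it, and it was left out of every value in the report.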

How the results depend on the processing

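The index, the window counts, the shares of regions found, the border, size and GC values, the gene counts and the bulk support were recomputed with autosomes only, with windows of mostly known sequence, with gaps of 1 window closed, with regions of at least 200 kb, with other definitions and without each chromosome in turn. Windows, GC content, genes and bulk support were higher for 50000 cells only than for 200000 cells only under all these settings. With 80% of a region covered, 72.5% of the 50k regions and 82.3% of the 200k regions were found. On windows of mostly known sequence 53.7% of borders were the same. The median in place of the mean shift was 0 kb. Mean sizes were 1635 and 1558 kb. For 50000 cells only, GC content was 41.5% on autosomes and 41.3% over pooled bases, against 38.1% pooled for 200000 cells only. Genes of all types numbered 1271 and 507. Bulk support of 50000 cells only was 79.6% on autosomes. With the 1e6 list as reference support was 45.0% and 22.6%, and with windows common to G1, S and G2 21.5% and 1.31%. Without single chromosomes the Jaccard index ranged from 0.855 to 0.870 and the bulk support of 50000 cells only from 72.5% to 78.6%, both highest without Y. The other 65 of 81 values stayed within the interval of the value or within 1.5 times the count. No paired analysis was possible because each cell number has 1 merged list. The lists hold no read counts, so a window missing from a list cannot be told apart from one just below its threshold, and no value here separates the effect of cell number from the spread between preparations.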

Other observations

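Some genes of windows called with 50000 cells only, singled out after their values were seen, formed tandem clusters of related members. They were 20 of 26 USP17L genes (deubiquitinases) on chromosome 4, 11 of 23 PRAMEF genes on chromosome 1, 7 of 9 genes of the TRIM49, TRIM64 and TRIM77 group on chromosome 11, 6 of 7 TSPY genes on Y and 4 of 8 GIMAP genes (immune GTPases) on chromosome 7. All of these lay in bulk regions, and windows called with 200000 cells only held none. Where the copies of a cluster are near-identical the placing of reads is uncertain, but the likeness of copies was not measured here. Of the olfactory receptors and zinc finger genes in windows called with 50000 cells only, 19 of 38 and 20 of 39 lay in bulk regions. With these, the clusters held 125 of the 231 genes, and 106 other genes were left, against 61 for 200000 cells only.

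Bulk cells also differed from both dilutions together. The bulk list held 1731 windows (173 Mb) that neither list had, with a median GC content of 43.8% and 1124 protein-coding genes. Of these windows, 60.9% were in the list of cells 90 min after mitotic release and 5.60% in the 1e6 list. In the other direction, 404 windows (40.4 Mb) were in both the 50k and 200k lists but not in bulk, with a median GC content of 36.9% and 97 genes. Within 2 Mb of an assembly gap of at least 1 Mb lay 14.9% of the latter windows, against 2.20% of the former and 9.96% of all windows.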
